A study of Mus musculus with 24 samples.

Results

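The 10 genes described here encode secreted inflammatory proteins: the interleukin gene Il6, the CXC chemokine genes Cxcl1, Cxcl2, Cxcl5 and Cxcl12, the CC chemokine genes Ccl2, Ccl7 and Ccl8, the macrophage growth factor gene Csf1 and the leukemia inhibitory factor gene Lif. They were chosen by name, with earlier results of these data known, from the 23283 genes of the count table, and all 10 had a row in it. They are described in each of the study's 6 groups of mouse cells.

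RNA was measured in 24 libraries, prepared from cytosolic RNA of wells that received 1000 cells. Bulk MEF (4 libraries) were untreated mouse embryonic fibroblasts kept in serum, which the labels call unsorted and slow cycling. Slow MEF and fast MEF (4 libraries each) were fibroblasts in which doxycycline at 2 ug/ml had induced the Yamanaka reprogramming factors for 6 days, in embryonic stem cell medium with 1000 U/ml of LIF protein. They were sorted by how far they had diluted the division dye CFSE over 48 hours. The iPS group (4 libraries) held factor-independent induced pluripotent stem cells positive for an Oct4:GFP reporter, grown in the same medium without doxycycline and labelled fast. Slow GMP (3 libraries) and fast GMP (5 libraries) were granulocyte monocyte progenitors, blood precursors of neutrophils and monocytes. They grew in SCF at 100 ng/ml and IL3 at 50 ng/ml, beside other growth factors, and were sorted after 24 hours of CFSE dilution. The labels give no strain, genotype or age, and they leave unsaid whether a group's libraries go back to different animals or cultures. P-values thus reflect how far these libraries spread, which may be technical variation.

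Chemokines are small secreted proteins that bind receptors on leukocytes and draw them along a gradient. Those that act on Cxcr2 attract mainly neutrophils, those that act on Ccr2 attract monocytes, and Cxcl12 retains blood progenitors near stromal cells through Cxcr4. Fibroblasts are a known source of such signals, and many of these genes are targets of the transcription factor NF-kB. Il6 and Lif signal through the shared receptor chain gp130 (encoded by Il6st) to Stat3, and LIF protein in the medium is the usual means of keeping mouse pluripotent cells in culture.

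Library totals ran from 2098846 to 18648132 counts, with 2098846 to 4411526 in the 8 GMP libraries. Levels are given as CPM (counts scaled to a common library size), with TMM factors over all 24 libraries. Cell type markers followed the labels. The summed level of 10 fibroblast markers was 21820 to 39100 CPM in bulk MEF, 40210 to 77820 in slow MEF and 1923 to 4827 in fast MEF, against at most 502 in the other groups. Of 12 GMP markers, 11 were in the table, and they summed to 5378 to 25250 CPM in GMP and at most 60.9 elsewhere. The 8 pluripotency markers summed to 1960 to 2710 CPM in iPS and at most 100.1 elsewhere. Markers of other cells also differed between groups. The 6 epithelial markers summed to 8166 to 13690 CPM in fast MEF and to at most 576 in any other library. Krt14 (9834 ± 2306 CPM) and Krt8 (1682 ± 187.5) gave nearly all of this. Cdh1 stood at 189 ± 22.4 CPM in fast MEF, Epcam at 25.05 ± 7.07 and Krt5 at 0.592 ± 0.406. Krt18 stood at 13.9 ± 9.72 CPM in fast and 19.6 ± 18.8 in bulk MEF. The 13 measured macrophage markers summed to 199.9 to 357 CPM in bulk MEF and 3.43 to 164 in slow MEF. They summed to 10.3 to 32.8 CPM in fast MEF and 16.4 to 55.9 in iPS. Every marker was counted in each of these groups, but Cd68 gave nearly all of the iPS sum, at 34.5 ± 22.0 CPM. The other macrophage markers averaged at most 0.284 CPM in iPS. In fast MEF Cd68 stood at 9.93 ± 5.16 CPM. The 7 mast cell and basophil markers summed to 332 to 387 CPM in fast MEF, with Cpa3, Tpsb2 and Ms4a2 at 0 there, and to at most 193 elsewhere. Gata2, a transcription factor gene that other cells also express, gave nearly all of this, at 358 ± 25.5 CPM, while the basophil protease gene Mcpt8 stood at 0.226 ± 0.344 CPM in fast and 30.7 ± 8.66 in bulk MEF. The 6 endothelial markers reached at most 128 CPM and the 6 lymphoid markers at most 70.02 CPM in any library.

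The promoters of 4 members are shown because they hold a match to the NF-kB consensus, and because Cxcl1 and Cxcl2, which are neighbours on chromosome 5, carry the same letters there. Windows of 300 bases around the start site are RefSeq's, for the build GRCm38.p6, which is later than the mm9 build named for these files. Capitals mark the NF-kB consensus match.
Cxcl1, chr5:90890995-90891294, plus strand: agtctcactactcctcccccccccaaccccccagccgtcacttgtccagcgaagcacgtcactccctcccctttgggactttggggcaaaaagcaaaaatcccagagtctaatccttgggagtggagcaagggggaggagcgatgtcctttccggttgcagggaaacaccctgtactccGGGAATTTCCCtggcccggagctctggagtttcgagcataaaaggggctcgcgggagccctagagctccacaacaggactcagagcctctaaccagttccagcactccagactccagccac
Cxcl2, chr5:90903649-90903948, plus strand: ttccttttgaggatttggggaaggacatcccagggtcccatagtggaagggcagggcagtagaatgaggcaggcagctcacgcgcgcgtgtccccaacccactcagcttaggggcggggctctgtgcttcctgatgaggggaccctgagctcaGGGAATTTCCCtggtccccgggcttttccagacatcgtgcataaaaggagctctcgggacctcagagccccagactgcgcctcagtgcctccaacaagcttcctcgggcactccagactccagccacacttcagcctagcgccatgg
Il6, chr5:30012864-30013163, plus strand: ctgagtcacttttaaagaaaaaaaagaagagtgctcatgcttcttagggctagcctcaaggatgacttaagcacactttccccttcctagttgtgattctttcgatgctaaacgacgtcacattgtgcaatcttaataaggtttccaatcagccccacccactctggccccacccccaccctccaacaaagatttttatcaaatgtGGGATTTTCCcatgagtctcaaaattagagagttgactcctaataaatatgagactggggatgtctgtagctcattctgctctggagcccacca
Csf1, chr3:107760420-107760719, minus strand: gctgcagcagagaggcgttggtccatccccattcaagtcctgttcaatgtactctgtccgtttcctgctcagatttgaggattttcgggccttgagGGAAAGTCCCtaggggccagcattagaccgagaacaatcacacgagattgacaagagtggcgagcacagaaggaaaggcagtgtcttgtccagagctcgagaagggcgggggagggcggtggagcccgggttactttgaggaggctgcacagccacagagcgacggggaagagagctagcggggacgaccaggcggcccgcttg

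Of the 10 genes, 7 had a RefSeq window, and 5 of these held an NF-kB consensus match on either strand: Cxcl1, Cxcl2, Il6, Csf1 and Lif. The share over all 32851 promoters was 8.46%. In Cxcl1 the letters GGGAATTTCC began 71 bases before the start site (position -71), and in Cxcl2 they began at -97. In each of these promoters a reverse match, GGAATTTCCC, overlapped it by all but 1 base. Il6 had GGGATTTTCC at -44, Csf1 had GGAAAGTCCC at -154 on the strand opposite to the gene, and Lif had GGGACGCCCC at -178. The AP-1 letters TGANTCA were in the windows of Il6 and Lif (7.81% of all promoters) and the C/EBP letters TTGCNNAA in that of Il6 (10.8%). The letters TATAAA were in that of Ccl8, at -32 (13.6%). A match describes letters in this window and not a bound site.

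**Figure D1:**
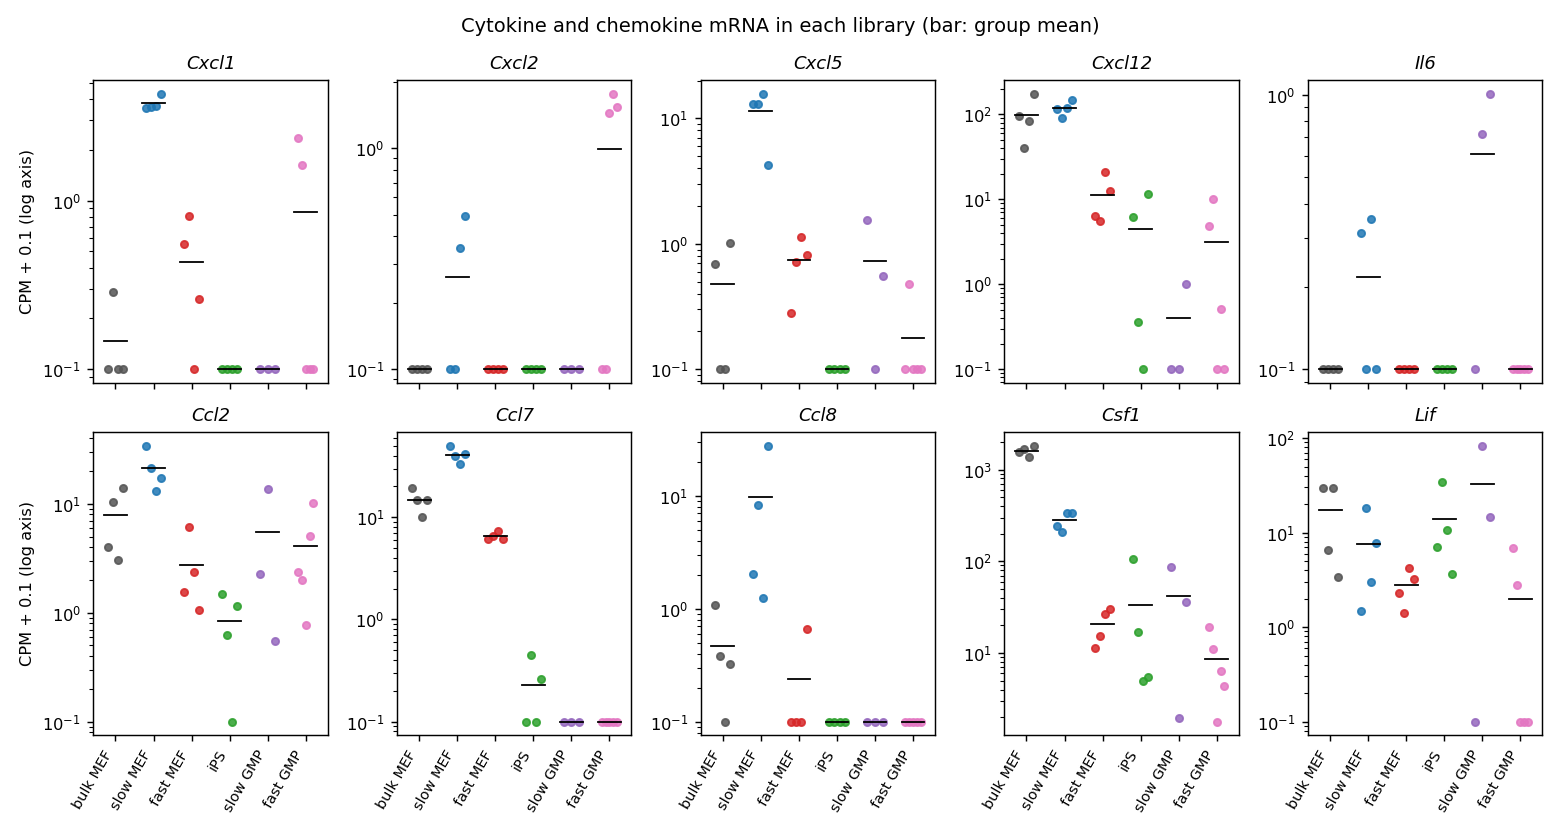
Level of each of the 10 genes in every library, in CPM on a log axis with 0.1 added, by group; points are libraries and the bar is the group mean. Slow MEF libraries sit above those of fast MEF for Cxcl1, Cxcl5, Cxcl12, Ccl2, Ccl7, Ccl8 and Csf1, whereas Csf1 is highest in bulk MEF.

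The CXC chemokines of the neutrophil-attracting type were low, and Cxcl1 and Cxcl5 were highest in slow MEF. Cxcl1, a ligand of Cxcr2, stood at 3.42, 3.51, 3.53 and 4.21 CPM in the slow MEF libraries and at 0.454, 0.705, 0 and 0.16 CPM in fast MEF. In bulk MEF it had 2 counts in all, in replicate 2 (0.187 CPM), and it had none in iPS or slow GMP. Fast GMP held 2.26 and 1.52 CPM in replicates 1 and 2 and none in the other 3. The slow MEF range lay above every other library, and the remaining groups overlapped one another.

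Cxcl5, another Cxcr2 ligand, stood at 12.9, 13.0, 15.7 and 4.11 CPM in slow MEF. It had 0.181, 0.617, 1.04 and 0.719 CPM in fast MEF and 0.587, 0, 0 and 0.907 CPM in bulk MEF. All slow MEF libraries exceeded all others, although replicate 4 was well below the other 3. Cxcl5 had no count in iPS, 5 counts in slow GMP and 1 count in fast GMP. Cxcl2, the neighbour of Cxcl1 and a Cxcr2 ligand too, had 6 counts in slow MEF (replicates 3 and 4) and 10 in fast GMP (replicates 3, 4 and 5), and none in the other groups. Its group means were 0.161 CPM in slow MEF and 0.891 CPM in fast GMP, where 3 counts over the group would be 0.0836 and 0.175 CPM. These counts were too few for the test in any comparison.

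Cxcl12, a stromal chemokine that acts on Cxcr4, was high in both bulk and slow MEF. It stood at 96.2, 40.3, 82.9 and 176 CPM in bulk MEF and at 116, 90.05, 120 and 146 CPM in slow MEF, and these ranges overlapped. Fast MEF had 6.35, 5.46, 20.6 and 12.5 CPM and iPS had 6.09, 0.262, 0 and 11.4 CPM. Both of these groups lay below every bulk and slow MEF library and overlapped each other. Of the GMP, slow libraries had 0, 0 and 0.909 CPM and fast libraries 4.80, 9.88, 0, 0.418 and 0 CPM.

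The CC chemokines shared a high value in slow MEF. Ccl2, the main ligand of Ccr2, stood at 34.0, 21.3, 13.0 and 17.3 CPM in slow MEF and at 1.45, 5.99, 2.25 and 0.959 CPM in fast MEF. Bulk MEF had 3.92, 10.4, 2.94 and 13.8 CPM, which overlapped slow MEF in 1 library, and iPS had 1.37, 0.523, 0 and 1.04 CPM. The GMP values were scattered, at 2.16, 13.6 and 0.454 CPM in slow and 2.26, 1.90, 0.677, 5.01 and 10.03 CPM in fast libraries.

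Ccl7, a monocyte chemokine whose gene lies next to Ccl2 on chromosome 11, gave the cleanest order of groups. It stood at 49.9, 39.3, 32.8 and 41.4 CPM in slow MEF, at 19.2, 14.7, 10.02 and 14.7 CPM in bulk MEF and at 6.08, 6.52, 7.27 and 6.07 CPM in fast MEF. iPS had 0, 0.349, 0 and 0.16 CPM and no GMP library had a count, where 3 counts would be 0.297 CPM in slow and 0.175 CPM in fast GMP. The ranges of slow MEF, bulk MEF, fast MEF and iPS did not overlap, in that order.

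Ccl8, a further CC chemokine of the chromosome 11 cluster, was uneven between slow MEF libraries. It had 1.92, 8.16, 1.14 and 27.6 CPM there, from 18, 100, 9 and 282 counts. Bulk MEF had 0.979, 0.281, 0 and 0.227 CPM, fast MEF had 0.559 CPM in replicate 4 alone, and iPS and GMP had no count. The lowest slow MEF library was above all others, but the slow MEF mean of 9.71 ± 12.3 CPM (SD, n = 4) rested on replicate 4. The macrophage marker sum was 52.5, 164, 55.4 and 3.43 CPM in slow MEF replicates 1, 2, 3 and 4, and its part in the Ccl8 values was not tested.

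Csf1, the growth factor on which macrophages depend, was most abundant in bulk MEF. It stood at 1561, 1669, 1367 and 1813 CPM there, at 245, 208, 337 and 339 CPM in slow MEF and at 11.2, 15.3, 26.7 and 29.8 CPM in fast MEF. These 3 ranges did not overlap, so Csf1 fell from bulk to slow to fast MEF, unlike the chemokines that peaked in slow MEF. iPS had 106, 16.7, 4.83 and 5.45 CPM, with replicate 1 far above the other 3. GMP had 86.2, 1.85 and 36.4 CPM in slow and 18.9, 11.01, 1.69, 6.26 and 4.30 CPM in fast libraries.

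Lif, the cytokine added to the stem cell medium as protein, overlapped between groups. Its mRNA stood at 29.7, 6.36, 29.8 and 3.29 CPM in bulk MEF, 1.39, 18.2, 2.90 and 7.73 CPM in slow MEF and 2.18, 1.32, 4.16 and 3.12 CPM in fast MEF. iPS had 6.86, 34.5, 10.6 and 3.52 CPM, slow GMP 0, 82.7 and 14.5 CPM and fast GMP 6.78, 2.66, 0, 0 and 0 CPM. Every pair of neighbours in the order of group means overlapped. Il6, the cytokine that signals through Il6ra and gp130, was at or near 0 throughout: it had 2 counts in each of slow MEF replicates 1 and 3 and of slow GMP replicates 2 and 3, and none elsewhere. These 8 counts were all that was seen in 24 libraries, too few for the test in any comparison.

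Levels of different genes were set beside each other as CPM per kilobase of exon in the GENCODE mouse annotation. The method's priming from the poly(A) tail is not corrected for. On that scale slow MEF had 53.4 for Csf1, 51.01 for Ccl7, 18.99 for Ccl8, 18.8 for Ccl2 and 14.4 for Cxcl12. Cxcl5 (6.13), Cxcl1 (1.96) and Lif (1.74) were lower. In bulk MEF Csf1 stood at 303.5 CPM per kilobase, above Ccl7 at 18.3 and Cxcl12 at 12.1. Csf1 led the 10 in bulk MEF on this scale and in CPM. In slow MEF Csf1 and Ccl7 were near-equal only per kilobase, since their CPM were 282 ± 66.2 and 40.9 ± 7.05. The Ccl8 value there rested on replicate 4. With the priming not corrected for, the order of genes within slow MEF is not settled.

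Fast and slow MEF came from the same induced culture conditions and differ in dye dilution. Of the 8 members that could be tested, 7 fell in fast MEF and none rose. These were Cxcl1, Cxcl5, Cxcl12, Ccl2, Ccl7, Ccl8 and Csf1, but not Lif. Among all 11742 genes tested 31.7% passed, 17.3% lower and 14.4% higher. Cxcl1, Cxcl5 and Ccl8 were low outside slow MEF and passed the filter on low counts through that group, so their part in this count was set by where they are high. Over the 5 members tested in all 4 MEF and iPS comparisons (Cxcl12, Ccl2, Ccl7, Csf1 and Lif) the median log2 fold change was -3.13, against -0.11 over all genes. Of these 5, Cxcl12, Ccl2, Ccl7 and Csf1 had library ranges that did not overlap, as was the case for 35.6% of genes. The ranges of Cxcl1, Cxcl5 and Ccl8 did not overlap either, but the filter bears on this too. Il6 and Cxcl2 had too few counts to be tested.

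Csf1 fell from 282 ± 66.2 to 20.7 ± 8.91 CPM (mean ± SD over 4 libraries each), a log2 fold change of -3.87 ± 0.39 (SE; adjusted p = 8.83e-05 by edgeR's quasi-likelihood test). Ccl7 fell from 40.9 ± 7.05 to 6.49 ± 0.566 CPM (-2.77 ± 0.34, edgeR adjusted p = 0.000267) and Cxcl12 from 118 ± 23.0 to 11.2 ± 6.995 CPM (-3.48 ± 0.48, edgeR adjusted p = 0.000532). The 3 strongest tests thus belonged to a growth factor, a CC chemokine and a CXC chemokine. Cxcl5 fell by 4.28 ± 0.76, Ccl2 by 3.13 ± 0.66, Ccl8 by 5.96 ± 1.51 and Cxcl1 by 3.51 ± 0.90 on the log2 scale (edgeR adjusted p = 0.00204, 0.00527, 0.0128 and 0.0134). Lif stood at -1.60 ± 0.84 (edgeR adjusted p = 0.172) with overlapping ranges.

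Single libraries set some of these sizes. The difference for Ccl8 was -4.65 without slow MEF replicate 4 and -9.59 without fast MEF replicate 4, which held the only 7 counts of fast MEF. Without fast MEF replicate 2 that for Ccl2 was -3.88 and that for Cxcl1 -4.11. All 7 calls held when any 1 library was left out, but with all 24 libraries in 1 fit Csf1 alone passed. Cxcl1 had an adjusted p = 0.0566 in edgeR without a filter on low counts. Fibroblast markers moved with these genes: 10 of 10 fell in fast MEF, with a median log2 fold change of -4.64, and all 5 tested epithelial markers rose. Their part in the fall of the chemokines was not tested, and in bulk libraries fewer cells of a type and less RNA per cell cannot be told apart.

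**Figure D2:**
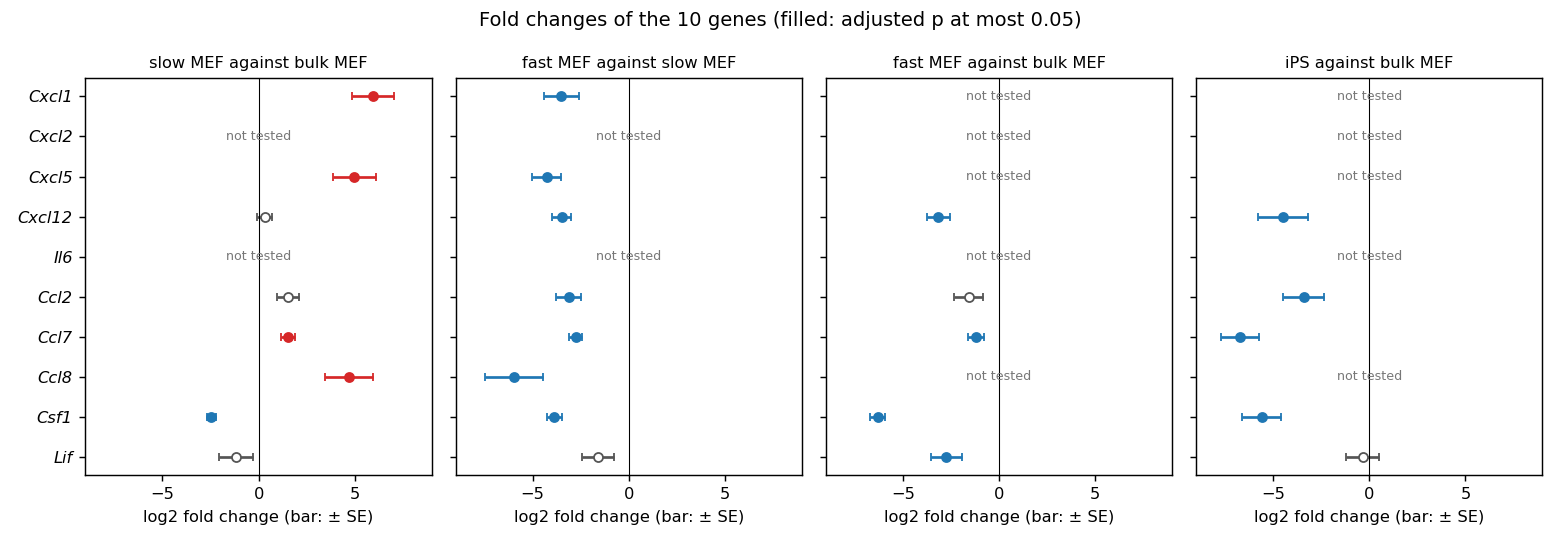
Log2 fold change (x axis) of each tested member in the 4 comparisons of MEF and iPS groups, with its standard error as the bar; filled points had an adjusted p of at most 0.05. In fast against slow MEF all points lie below 0, whereas slow against bulk MEF has Cxcl1, Cxcl5, Ccl7 and Ccl8 above it and Csf1 below.

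Slow, fast and iPS groups were each compared with bulk MEF, so these 3 comparisons share the same 4 control libraries. Slow and bulk MEF also differ in medium, doxycycline and induced factors. In slow MEF 4 of 8 tested members rose: Cxcl1, Cxcl5, Ccl7 and Ccl8. Csf1 fell. Among all 11253 genes tested, 10.5% passed, 5.51% higher and 4.99% lower. Of the 4 that rose, Cxcl1, Cxcl5 and Ccl8 again passed the filter through slow MEF, and their count supports nothing about the set. Over the 5 members tested in all 4 comparisons the median log2 fold change was 0.31, against 0.03 over all genes. Of these 5, Ccl7 and Csf1 had library ranges that did not overlap, which held for 18.7% of genes. The ranges of Cxcl1, Cxcl5 and Ccl8 did not overlap either, but the filter bears on this too.

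Cxcl1 rose to 3.67 ± 0.365 CPM in slow MEF (log2 fold change 5.94 ± 1.10 SE, edgeR adjusted p = 0.00721). Its 146 counts against 2 in bulk MEF gave a ratio of 81.7, with an exact 95% interval of 22.2 to 681 that covers counting error only, since amplified reads are not independent molecules. Cxcl5 rose from 0.374 ± 0.451 to 11.4 ± 5.03 CPM (4.96 ± 1.12, edgeR adjusted p = 0.0178). The low level of both genes in bulk MEF makes the size of these folds less certain than their direction: it was 8.19 for Cxcl1 without bulk MEF replicate 2, which held its only counts, and 5.80 for Cxcl5 without bulk MEF replicate 4.

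Ccl7 rose from 14.7 ± 3.74 to 40.9 ± 7.05 CPM (1.52 ± 0.37, edgeR adjusted p = 0.0236). Ccl8 rose from 0.372 ± 0.424 to 9.71 ± 12.3 CPM (4.69 ± 1.26, edgeR adjusted p = 0.0358). Both calls were near the threshold. Ccl7 no longer passed when slow MEF replicate 1 (log2 1.41) or bulk MEF replicate 2, 3 or 4 (1.51, 1.37 and 1.51) was left out, with an edgeR adjusted p of 0.0362 to 0.0578 over the 8 libraries left out. Ccl8 no longer passed when slow MEF replicate 2 or 4, or bulk MEF replicate 2, 3 or 4, was left out (edgeR adjusted p of 0.0357 to 0.114 over the 8). Its fold change was 3.33 without slow MEF replicate 4 and 5.78 without bulk MEF replicate 1.

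Csf1 went the other way, from 1603 ± 188 to 282 ± 66.2 CPM (-2.46 ± 0.22, edgeR adjusted p = 0.000109), and passed with any 1 library left out. Ccl2 stood at 1.51 ± 0.58 (edgeR adjusted p = 0.126), Cxcl12 at 0.31 ± 0.40 (0.66) and Lif at -1.16 ± 0.87 (0.426), all with overlapping ranges. None of the 5 calls held with all 24 libraries in 1 fit, where 56 genes in all passed. Fibroblast markers were higher in slow MEF too (6 of 10 rose, median log2 1.26), and the 9 tested macrophage markers had a median of -1.33 with none past the threshold. The part of either in the members' values was not tested.

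Fast MEF had lower Cxcl12, Ccl7, Csf1 and Lif than bulk MEF. These were 4 of 5 tested members, and none rose. Among all 11335 genes tested 34.9% passed, 18.4% lower and 16.5% higher. The members' median log2 fold change was -2.73, against -0.05 over all genes. Csf1 fell by 6.30 ± 0.38 on the log2 scale (edgeR adjusted p = 1.55e-06), from 1603 to 20.7 CPM. Cxcl12 fell by 3.15 ± 0.58 (edgeR adjusted p = 0.00214), from 98.8 ± 56.6 CPM in bulk MEF. The ranges of both genes, and of Ccl7, did not overlap, as for 37.3% of genes.

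The other 2 calls were weak. Lif fell from 17.3 ± 14.4 to 2.69 ± 1.22 CPM (-2.73 ± 0.79, edgeR adjusted p = 0.021), although its ranges overlapped. Its adjusted p was 0.059, 0.059, 0.0541 and 0.0604 in edgeR without bulk MEF replicate 1 or 3 or fast MEF replicate 1 or 2. Ccl7 fell by 1.21 ± 0.42 (edgeR adjusted p = 0.0437) and passed in only 1 of the 8 fits with a library left out (adjusted p of 0.0404 to 0.109, log2 -1.35 to -1.06). It also missed the threshold with DESeq2 size factors in edgeR (0.0574) and without a filter on low counts (0.0854). Ccl2 stood at -1.58 ± 0.76 (edgeR adjusted p = 0.133). Cxcl1, Cxcl5 and Ccl8 were too low in both groups to be tested: Cxcl1 had 15 counts in fast and 2 in bulk MEF, a ratio of 9.32 with an exact 95% counting interval of 2.17 to 84.0. Beside these values, 7 of 10 fibroblast markers and 6 of 7 tested macrophage markers fell, and the part of these cells was not tested.

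iPS had lower mean levels of the CC chemokines than any MEF group. Cxcl12, Ccl2, Ccl7 and Csf1, 4 of 5 tested members, fell against bulk MEF, and none rose. Among all 11736 genes tested 47.4% passed, 23.3% lower and 24.1% higher. The members' median log2 fold change was -4.46, against 0.10 over all genes. Ccl7 fell by 6.72 ± 0.97 (edgeR adjusted p = 0.000405), Csf1 by 5.59 ± 1.004 (0.00133), Cxcl12 by 4.46 ± 1.30 (0.017) and Ccl2 by 3.41 ± 1.07 (0.024) on the log2 scale. The iPS and bulk MEF ranges of all 4 did not overlap, which held for 47.3% of genes.

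Sizes in iPS again turned on few libraries. Csf1 stood at -7.52 without iPS replicate 1, Cxcl12 at -5.64 without iPS replicate 4 and Ccl7 at -7.81 without iPS replicate 2. Ccl2 no longer passed without bulk MEF replicate 4 (-3.01, edgeR adjusted p = 0.059) or iPS replicate 2 (-3.27, 0.0624). Lif, at 13.9 ± 14.0 CPM in iPS and 17.3 ± 14.4 in bulk MEF, stood at -0.34 ± 0.86 (edgeR adjusted p = 0.767). Cxcl5 and Ccl8 had no count in iPS and 14 and 15 counts over the bulk MEF group. Against a floor of 3 counts over the iPS group, these pooled counts made them at least 5.04-fold and 5.40-fold lower in iPS. Such ratios carry no counting or replicate error, and for each gene some bulk MEF library had no count either. All 9 tested fibroblast markers and 5 of 6 tested macrophage markers fell in iPS, and their part was not tested.

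In GMP most members were near the limit of detection and only Ccl2, Csf1 and Lif could be tested between gates. None of the 3 passed, and none of 10057 genes did (0%). The ranges of the 3 overlapped, and only 3.46% of genes had ranges that did not. At an unadjusted p under 0.05 edgeR called 742 genes and 0 members. DESeq2 called 97 genes and a fit over all 24 libraries 385, again without a member. Csf1 stood at 41.5 ± 42.4 CPM in slow GMP (n = 3) and 8.44 ± 6.79 in fast GMP (n = 5), a log2 fold change of -2.28 ± 1.20 (edgeR adjusted p = 0.684). Lif stood at -3.93 ± 1.87 (0.667) and Ccl2 at -0.38 ± 1.38 (0.963). With these standard errors, differences of several fold would not have been detected.

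Genes too low for the test differed in raw counts. Cxcl12 had 44 counts in fast and 2 in slow GMP, a ratio of 12.9 with an exact 95% counting interval of 3.38 to 110. Fast GMP replicates 1, 2 and 4 held all of these, with 17, 26 and 1 counts. Replicates 1 and 2 also held every Cxcl1 count of fast GMP, 8 and 4. Their GMP marker sums were 5378 and 9209 CPM, against 21810, 25250 and 24640 CPM in replicates 3, 4 and 5. The part of this difference in the counts was not tested. Cxcl1 was at least 2.35-fold and Cxcl2 at least 1.96-fold higher in fast GMP, and Il6 at least 2.27-fold higher in slow GMP, each against the floor of 3 counts over the group at 0. These ratios compare the libraries and carry no replicate error.

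Whether the fast against slow difference itself differed between MEF and GMP was tested with an interaction term. None of 8 tested members passed, while 193 of 13814 genes did (1.4%). At an unadjusted p under 0.05 edgeR called 2779 genes and 2 members, Cxcl12 (log2 difference of fold changes -6.90 ± 1.92, adjusted p = 0.0685) and Cxcl1 (-8.84 ± 2.89, adjusted p = 0.104). DESeq2 called 1563 genes and 1 member, Cxcl12 (-7.04, adjusted p = 0.00272). With 1 library left out, Cxcl12 ran from -5.71 (without fast GMP replicate 2) to -10.73 (without slow GMP replicate 3, the only slow GMP library with a count), and it was at -6.28 without slow GMP replicate 1 or 2. It passed in edgeR without fast GMP replicate 3 or 5 (adjusted p = 0.0448 and 0.0494), and the adjusted p ran from 0.0448 to 0.144. Ccl7 and Ccl8 gave no usable estimate because no GMP library had a count. The fall of the chemokines in fast MEF was therefore not shown to be particular to MEF.

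The main receptors of the chemokines and that of Csf1 had their highest group means in GMP, whereas Il6st and Lifr had theirs in slow MEF. Ccr2, the receptor of Ccl2 and Ccl7, stood at 67.4 ± 21.1 CPM in slow and 44.9 ± 24.0 in fast GMP and at most 0.049 on average elsewhere. Cxcr4, the receptor of Cxcl12, stood at 250.1 ± 233 and 73.4 ± 34.5 CPM in slow and fast GMP and at most 3.46 ± 2.42 on average in the other groups. Csf1r, the receptor of Csf1 and itself among the macrophage markers, stood at 98.1 ± 47.7 and 176 ± 104 CPM, and at most 6.55 ± 6.91 on average elsewhere. Cxcr2, the receptor of Cxcl1, Cxcl2 and Cxcl5, stood at 20.6 ± 9.95 and 24.0 ± 24.8 CPM, and at most 5.17 ± 1.78 on average elsewhere. Fast GMP replicates 3 and 4, at 1.69 and 2.09 CPM of Cxcr2, lay below every slow MEF and iPS library. None of 9 receptor genes tested in GMP passed between gates. Cxcr1, Ccr1, Ccr3, Cxcr7, Ccbp2 and Darc, further chemokine receptor genes, had group means of at most 7.72 CPM.

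**Figure D3:**
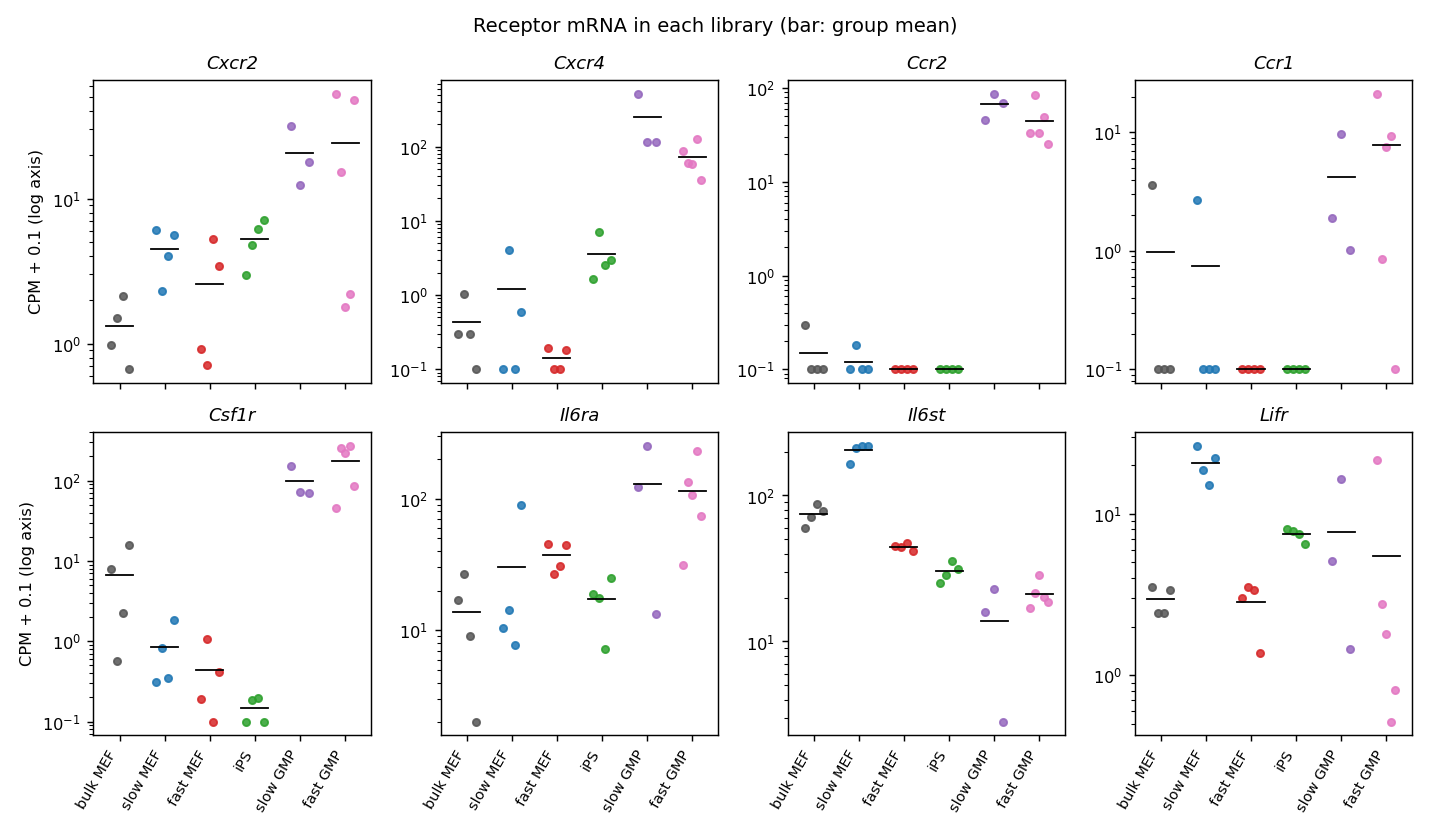
Level of 8 receptor genes in every library, in CPM on a log axis with 0.1 added, by group; points are libraries and the bar is the group mean. Ccr2, Cxcr4 and Csf1r are highest in GMP, and Il6st and Lifr are highest among the MEF groups in slow MEF.

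Il6st and Lifr, which encode the chains of the LIF receptor, were highest of the MEF groups in slow MEF. Il6st stood at 165, 211, 218 and 219 CPM in slow MEF and at 44.8, 44.4, 47.1 and 41.6 CPM in fast MEF, with 59.7, 71.3, 87.5 and 78.1 CPM in bulk MEF. The 3 ranges did not overlap. It rose in slow against bulk MEF (log2 1.50 ± 0.25, edgeR adjusted p = 0.004) and fell in fast against slow MEF (-2.31 ± 0.23, 8.32e-05). Lifr stood at 26.2, 18.5, 14.9 and 21.9 CPM in slow MEF, above the 2.85 ± 0.594 of bulk and 2.73 ± 0.992 of fast MEF. It rose by 2.88 ± 0.48 and fell by 3.01 ± 0.50 in the same comparisons (edgeR adjusted p = 0.00385 and 0.00153). Il6ra, the specific chain of the Il6 receptor, overlapped between slow MEF and both other MEF groups. Its bulk MEF libraries, at most 26.5 CPM, lay just below those of fast MEF, at least 26.9 CPM. Its means were 13.6 ± 10.6 CPM in bulk, 30.3 ± 39.1 in slow and 36.9 ± 9.46 in fast MEF. The other means of Il6ra were 17.1 ± 7.39 in iPS, 129 ± 119 in slow GMP and 115 ± 75.1 in fast GMP. Of the receptors tested, 2 of 4 were lower and none higher in fast against slow MEF (all genes 17.3% and 14.4%), and 2 of 5 were higher and none lower in slow against bulk MEF (all genes 5.51% and 4.99%).

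Against bulk MEF, iPS had higher Cxcr2 (log2 2.07 ± 0.64), Cxcr4 (3.32 ± 0.99) and Lifr (1.37 ± 0.47) and lower Il6st (-1.30 ± 0.29), with edgeR adjusted p = 0.0219, 0.0195, 0.0352 and 0.00422. These were 3 higher and 1 lower of 6 tested receptors, beside 24.1% and 23.3% of all genes. Fast MEF had lower Il6st (-0.78 ± 0.27) and Csf1r (-4.18 ± 1.24) than bulk MEF, 2 of 5 tested beside 18.4% of all genes (edgeR adjusted p = 0.0419 and 0.0234). The 4 Csf1r values in bulk MEF ran from 0.468 to 15.8 CPM, so this gene, a macrophage marker, was uneven within the reference group.

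Genes that act upstream and downstream of the members were read from lists of the same pathways. In fast against slow MEF, where 17.3% of all genes were lower and 14.4% higher, the gp130 and Stat3 pathway had 6 lower and 1 higher of 14 tested genes. Jak2, a kinase of cytokine receptors, fell by 3.21 ± 0.70, the transcription factor gene Cebpb by 2.00 ± 0.46 and Stat3 itself by 1.70 ± 0.27 on the log2 scale, while the kinase gene Tyk2 rose by 2.13 ± 0.51. The NF-kB pathway had 3 lower and 1 higher of 23 tested. Il1r1 (the interleukin 1 receptor, -2.98 ± 0.89) and Tnfrsf1a (a TNF receptor, -1.75 ± 0.28) fell and Tnip1, an inhibitor of the pathway, rose (1.85 ± 0.44). Of 10 regulators of cytokine mRNA decay, 2 fell and 2 rose. Zfp36 and Zfp36l1, which destabilize AU-rich transcripts, fell by 1.64 ± 0.31 and 2.00 ± 0.26, and Hnrnpd (1.45 ± 0.30) and Khsrp (1.29 ± 0.25), which act on such transcripts too, rose. Other chemokines had 2 lower and 1 higher of 5 tested, and the CXC chemokine gene Cxcl14 fell by 2.83 ± 0.45. Other secreted cytokines had 2 lower and 0 higher of 6. All adjusted p in edgeR for the genes named here were at most 0.05.

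In slow against bulk MEF, 5.51% of all genes were higher and 4.99% lower. NF-kB genes had 2 higher and 1 lower of 21 tested: Bcl3 (2.41 ± 0.43) and Il1r1 (2.38 ± 0.47) rose and Nfkb2 (-1.73 ± 0.47) fell. Jak2 was the 1 gene of 14 in the gp130 list to pass (2.95 ± 0.41), and Zfp36l1 the 1 of 10 decay regulators (1.67 ± 0.20). Among other chemokines 1 of 5 rose, among other cytokines 1 of 6 rose and 1 fell, Mif (-1.06 ± 0.28). Bcl3, Il1r1, Jak2 and Zfp36l1 shared with Cxcl1, Cxcl5, Ccl7 and Ccl8 the highest of the 3 MEF means in slow MEF. This follows in part from naming genes that were higher in slow than in bulk MEF. In slow MEF Bcl3 stood at 68.55 ± 18.8 CPM, Il1r1 at 47.8 ± 19.7, Jak2 at 103 ± 49.2 and Zfp36l1 at 745.5 ± 113.5. Unlike the chemokines, Bcl3 had a higher mean in iPS, at 82.2 ± 21.9 CPM.

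Fast against bulk MEF gave 4 lower and 2 higher of 21 NF-kB genes, 5 lower and 2 higher of 13 gp130 genes, and 1 lower and 3 higher of 10 decay regulators, beside 18.4% lower and 16.5% higher among all genes. In the NF-kB list Tnip1 rose by 2.54 ± 0.44 on the log2 scale, and Nfkb2 fell by 1.41 ± 0.33, Tnfrsf1a by 1.31 ± 0.27 and Rela, which encodes an activating NF-kB subunit, by 1.21 ± 0.38. In the gp130 list Cish, a feedback inhibitor of cytokine signalling, rose by 3.71 ± 0.61 and Tyk2 by 2.42 ± 0.68, while the repressor gene Bcl6 fell by 2.62 ± 0.91, Cebpb by 2.02 ± 0.44 and Stat3 by 1.10 ± 0.22. Of the decay regulators Hnrnpd rose by 1.60 ± 0.29, Rc3h1 by 1.05 ± 0.32 and Khsrp by 0.89 ± 0.26, and Zfp36 fell by 1.69 ± 0.48. Other chemokines had 1 lower of 5 (Cxcl14, -2.08 ± 0.37), and other cytokines 3 lower and 1 higher of 6, and Tnfrsf11b, a decoy receptor of the TNF family, fell by 5.14 ± 0.63 and Mif by 1.10 ± 0.29.

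iPS against bulk MEF gave 6 lower and 1 higher of 21 NF-kB genes, 7 lower and 2 higher of 14 gp130 genes, and 3 lower and 1 higher of 10 decay regulators, beside 23.3% lower and 24.1% higher in the background. In the NF-kB list Tnfrsf1a fell by 4.62 ± 0.63, Nfkbiz by 3.36 ± 0.90 and Ikbkb, a kinase that activates NF-kB, by 2.71 ± 0.44, and Bcl3 rose by 2.62 ± 0.42. In the gp130 list Bcl6 fell by 5.36 ± 0.77, Cebpb by 3.32 ± 0.44 and Junb by 2.04 ± 0.42, while Tyk2 rose by 2.61 ± 0.70 and Socs3, a feedback inhibitor induced by Stat3, by 1.98 ± 0.68. Of the decay regulators Zfp36 fell by 3.27 ± 0.56, Zfp36l2 by 1.83 ± 0.43 and Zfp36l1 by 0.92 ± 0.25, and Hnrnpd rose by 1.87 ± 0.29. Other chemokines had 1 lower (Cxcl14, -2.65 ± 0.72) and 1 higher of 4, and other cytokines 2 lower and 1 higher of 7, with Tnfrsf11b at -7.24 ± 0.95. In GMP no gene of any list passed between gates.

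**Figure D4:**
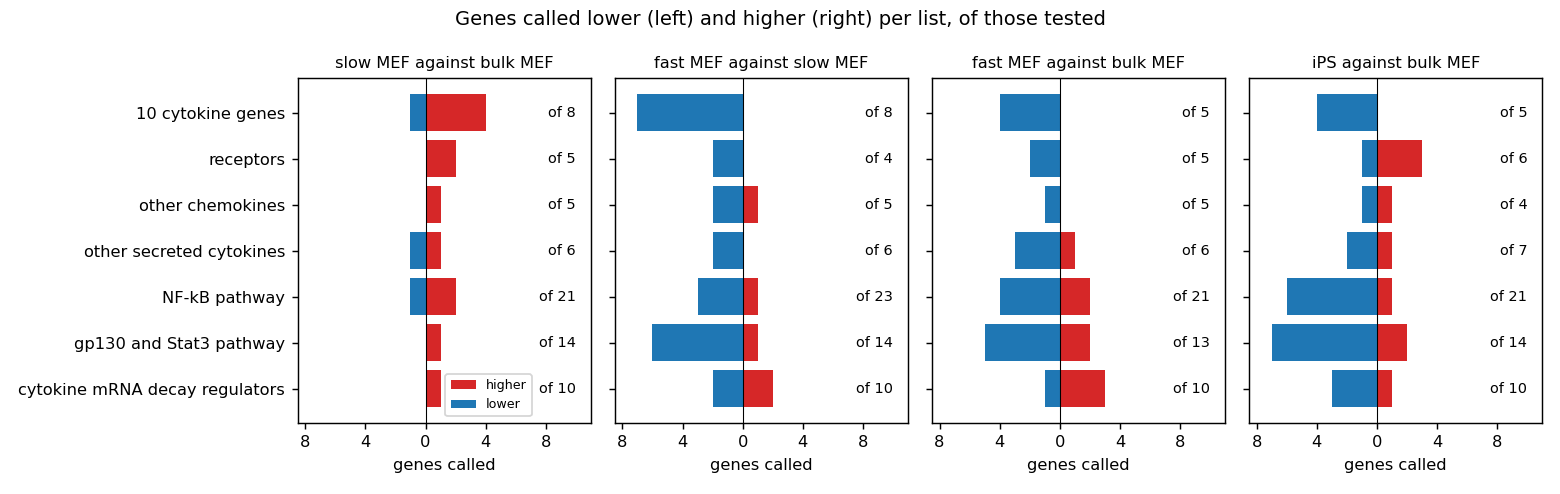
Number of genes called lower (left of 0) and higher (right of 0) in each gene list, with the number tested at the right, in the 4 comparisons of MEF and iPS groups. In fast against slow MEF 7 of 8 tested members are lower, beside 17.3% of all genes. In slow against bulk MEF 4 of 8 are higher and 1 is lower, beside 5.51% and 4.99% of all genes. Cxcl1, Cxcl5 and Ccl8 passed the filter on low counts through slow MEF in both, so these counts support nothing about the set.

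Among the members, pairs differed in how alike they were over the 24 libraries. Correlations of log2 CPM across libraries, which share groups and depth, are descriptions. Cxcl12 and Ccl7 had a Pearson r of 0.903, Cxcl12 and Csf1 of 0.83, and Cxcl5 and Ccl7 of 0.74. Lif stood apart, with r between -0.0751 and 0.221 with the other 5 genes that reached 10 CPM in a group. Of 11553 genes searched, the most alike to Ccl7 were Aspn (r = 0.988) and Ptn (0.98), to Cxcl12 Syde1 (0.947) and Lrrc17 (0.942) and to Csf1 Fam198b (0.97) and Ankrd1 (0.939). Cxcl5 was most like Abi3bp (0.93) and Ptx3 (0.928) and Ccl2 like Lgals3bp (0.85) and Tmem176a (0.837). Lif had no close match, with Hsd11b2 at 0.727 and 2810407C02Rik at 0.724. Ptx3 stood at 48.5 CPM in slow MEF and 2.47 in bulk MEF on average, and Aspn at 168 and 43.1. Cxcl5 and Ccl7 have the same order of these groups, which follows from picking Ptx3 and Aspn for their likeness.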

How the data were processed

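RNA-seq was made from 24 libraries, and the values the authors deposited are raw, whole-number counts of reads for 23283 genes, without normalization. The submitters' processing notes name the build mm9 and the tools HTSeq, TopHat2 2.0.4 and CASAVA 1.8.2. Their settings, the annotation, the strand and the treatment of reads shared between related genes were not given in the sources used here. None of 37 replicate pairs were identical.

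The members, the lists of 113 related genes and the 8 marker lists were chosen with earlier results of these data known. Comparisons of 2 groups used edgeR 4.0.16 in R 4.3.3 (quasi-likelihood F test, robust, TMM, filterByExpr, only the groups compared), with Benjamini-Hochberg adjustment over all genes tested and a two-sided threshold of 0.05. The script was tested on simulated data. A gene with no count in a group was given a floor of 3 counts there. All members and receptors were named, except an item that is not reported here. From each other list up to 3 called genes per direction were named, those with the largest changes, at least 20 CPM in the higher group and ranges that did not overlap. Likeness used genes with at least 10 CPM in a group and log2 CPM with a prior count of 2.

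Alternatives were DESeq2 size factors in edgeR, no filter on low counts, DESeq2 1.42.0, 1 fit over all 24 libraries, a block for the replicate number, counts without Rn45s and Lars2, and each library left out. Rn45s and Lars2, which collect ribosomal RNA reads, took 19.9% to 48.9% of counts in GMP and 3.05% to 11.7% elsewhere. Promoter windows are RefSeq's. Plots used matplotlib 3.10.9.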

Additional observations from a re-analysis of the deposited data

Results flagged for a closer look

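Of 38 groups of 4 or 5 libraries tested for a member, 5 had a library that stood far from the others by Dixon's 95% criterion. Its rate of about 1 in 20 by chance is for normally distributed values and does not hold for groups with few counts. Csf1 in iPS replicate 1 stood at 106 CPM, against 4.83 to 16.7 CPM in the other 3. Cxcl1 in slow MEF replicate 4 stood at 4.21 CPM, a small step above 3.42 to 3.53 CPM. The other 3 were lone libraries with counts where the rest of the group had none, which the criterion always flags. They were Cxcl1 in bulk MEF replicate 2 at 0.187 CPM (2 counts), Cxcl5 in fast GMP replicate 2 at 0.38 CPM (1 count) and Ccl8 in fast MEF replicate 4 at 0.559 CPM (7 counts).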

How the results depend on the processing

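The 20 calls of single members were recomputed in 280 alternatives, of which 239 kept the call, 41 kept the direction without passing and 0 reversed. With all 24 libraries in 1 fit, 1 member was lower in fast against slow MEF (of 1246 genes called), 0 were higher and 0 lower in slow against bulk MEF (56 genes), and 1 was lower in fast against bulk MEF (1513 genes). That fit called 3170 genes in iPS against bulk MEF, 385 in GMP and 1069 in the interaction. DESeq2 called 1977 genes in slow against bulk MEF, 97 in GMP (72 higher and 25 lower) and 1563 in the interaction, with 1 member; 34% of the last were higher, against 43% in edgeR. The cause of these shifts was not tested.

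With each library left out in turn, slow against bulk MEF gave 759 to 998 genes and 2 to 4 members higher, fast against bulk MEF 2 to 3 members lower, and the interaction 82 to 575 genes and 0 to 1 members. Lif in iPS ran from -1.32 to 0.07 on the log2 scale, with 0.0346 without bulk MEF replicate 1 and 0.0695 without bulk MEF replicate 3. Ccl2 in GMP ran from -1.10 to 1.58, the highest without slow GMP replicate 2, and the interaction of Cxcl5 from -2.94 to 0.94, the highest without fast GMP replicate 2. DESeq2 size factors moved the median log2 difference of all genes in the interaction from -0.33 to -0.48.

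Libraries with the same number did not deviate together (correlations of -0.0713 to 0.0803). Whether they share more than a number is not given by the labels, and such correlations cannot settle it. With the replicate block edgeR called 1529 genes higher and 1815 lower in fast against slow MEF, 424 and 446 in slow against bulk MEF, 1695 and 1892 in fast against bulk MEF, 2626 and 2507 in iPS against bulk MEF, 0 in GMP and 92 in the interaction. Ccl8 in slow against bulk MEF (4.49, adjusted p = 0.065) and Ccl7 in fast against bulk MEF (-1.19, 0.122) were the members that lost their call under the replicate block. By CPM of total counts Cxcl1 in slow MEF was 4.06 and Ccl7 in fast MEF 8.10. Depth limits the low genes most: against a group with no count a fold rests on the floor, without counting or replicate error.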

Other observations

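GMP carried other chemokines than the fibroblasts, named here after their values were seen. Ccl9 stood at 67.4 ± 15.4 CPM in slow GMP (SD, n = 3) and 71.7 ± 44.5 in fast GMP (n = 5), Ccl6 at 51.6 ± 50.2 and 65.2 ± 69.97, Ccl3 at 32.4 ± 37.7 and 39.03 ± 41.1 and Ccl4 at 36.07 ± 38.9 and 16.95 ± 8.27 CPM. These are CC chemokines of myeloid cells. Tnf, a major inflammatory cytokine, stood at 11.2 ± 16.02 CPM in slow and 48.05 ± 38.8 in fast GMP. None of these passed between the gates.

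In slow MEF the platelet chemokine gene Ppbp, which lies beside Cxcl5, stood at 13.1 ± 5.59 CPM against 1.19 ± 0.476 in bulk MEF (log2 fold change 3.50 ± 0.63 SE, edgeR adjusted p = 0.00618) and 0.785 ± 0.947 in fast MEF. Ccl11, which lies beside Ccl7, was counted in slow MEF at 0.740 ± 0.917 CPM.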
